A study of Mus musculus with 6 samples.

Results

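The smooth muscle contractile and pericyte genes are 38 named genes, 29 of the myometrium and 9 of pericytes, taken from a list of gene names with no threshold on their values. The list was nevertheless chosen with earlier results of these data known. All 38 were measured, among 18193 genes in all. RNA came from whole uteri of female mice collected at 3.5 dpc, with 3 arrays from Arid1a d/d mice and 3 from Arid1a f/f mice. Both genotypes carried floxed Arid1a alleles and had been mated with C57BL/6 males. Only Arid1a d/d mice also carried Cre recombinase at the Pgr locus, which deletes Arid1a only where PGR is expressed, and uterine cells without PGR keep the gene. No arrays of mice with Cre alone were analysed, so that Cre and the loss of Arid1a cannot be told apart, and the age of the mice is not given for the arrays. Whether the samples are separate mice is not stated in the labels, and the p-values then describe the spread between these samples, which may be technical.

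The myometrium is the smooth muscle wall of the uterus, and it contracts when calcium activates myosin light chain kinase and myosin pulls on actin filaments anchored in dense bodies. The transcription factor SRF and its cofactor myocardin activate many of the genes for this apparatus through a DNA motif named the CArG box. Pericytes are mural cells wrapped around capillaries, recruited by platelet-derived growth factor (PDGF), and smooth muscle cells surround the larger vessels.

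Values are the deposited normalized intensities, which the authors made with RMA and which carry no unit. After a log2 transformation, Arid1a d/d and Arid1a f/f arrays were compared by limma, and p-values were adjusted by Benjamini-Hochberg over 45037 probe sets. Where the probe sets of a gene were averaged, limma was fitted to 18193 gene means, and the adjustment ran over these genes. A gene is given by its brightest probe set, and positive log2 fold changes are higher values in Arid1a d/d uteri. The array median was 3.05 to 3.17, and the correlation of arrays was 0.9895 to 0.9923 within a genotype and 0.976 to 0.9867 between genotypes. Arid1a had intensities of 51.9, 51.9 and 58.2 in Arid1a d/d uteri and 83.6, 86.9 and 103.9 in Arid1a f/f uteri (log2 fold change -0.76, adjusted p = 0.0120, limma). The groups did not overlap, but whether this probe set covers the deleted exons was not known. In RNA from a whole organ, fewer cells of a type and less RNA per cell cannot be told apart. Among the bright myometrial members, Acta2, Tpm2, Myl9, Tagln and Mylk had intensities of at least 1111 on every array. Others were dim, and means over the 6 arrays ran from 4.5 (Kcnmb1) to 2745 (Acta2). In the pericyte group they ran from 6.9 (Pdgfb) to 664 (Rgs5). These intensities do not show which cells made the RNA.

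Of the 38 members, 2 were lower in Arid1a d/d uteri at an adjusted p under 0.05, against 4.06% of all genes, and 0 were higher, against 3.37% of all genes (7.43% in either direction). The lower members were Rgs5, a regulator of G protein signaling of pericytes and vascular smooth muscle, and Des, which encodes the muscle intermediate filament protein desmin. Most members lay below 0, and most of these did not pass the test. A negative log2 fold change was found in 30 of 38 members, among them Rgs5 and Des, and in 9741 of 18193 genes. The median was -0.19 over the members and -0.018 over all genes. At an unadjusted p under 0.05, 13 members were lower, against 13.5% of all genes, and 1 was higher, against 11.4% of all genes. On 12 of 38 members all Arid1a d/d arrays lay below all Arid1a f/f arrays, against 16.0% of all genes. On 0 members all lay above, against 13.4% of all genes. The 29 myometrial members held 1 lower gene and a median of -0.12, and the 9 pericyte members held 1 lower gene and a median of -0.40.

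**Figure D1:**
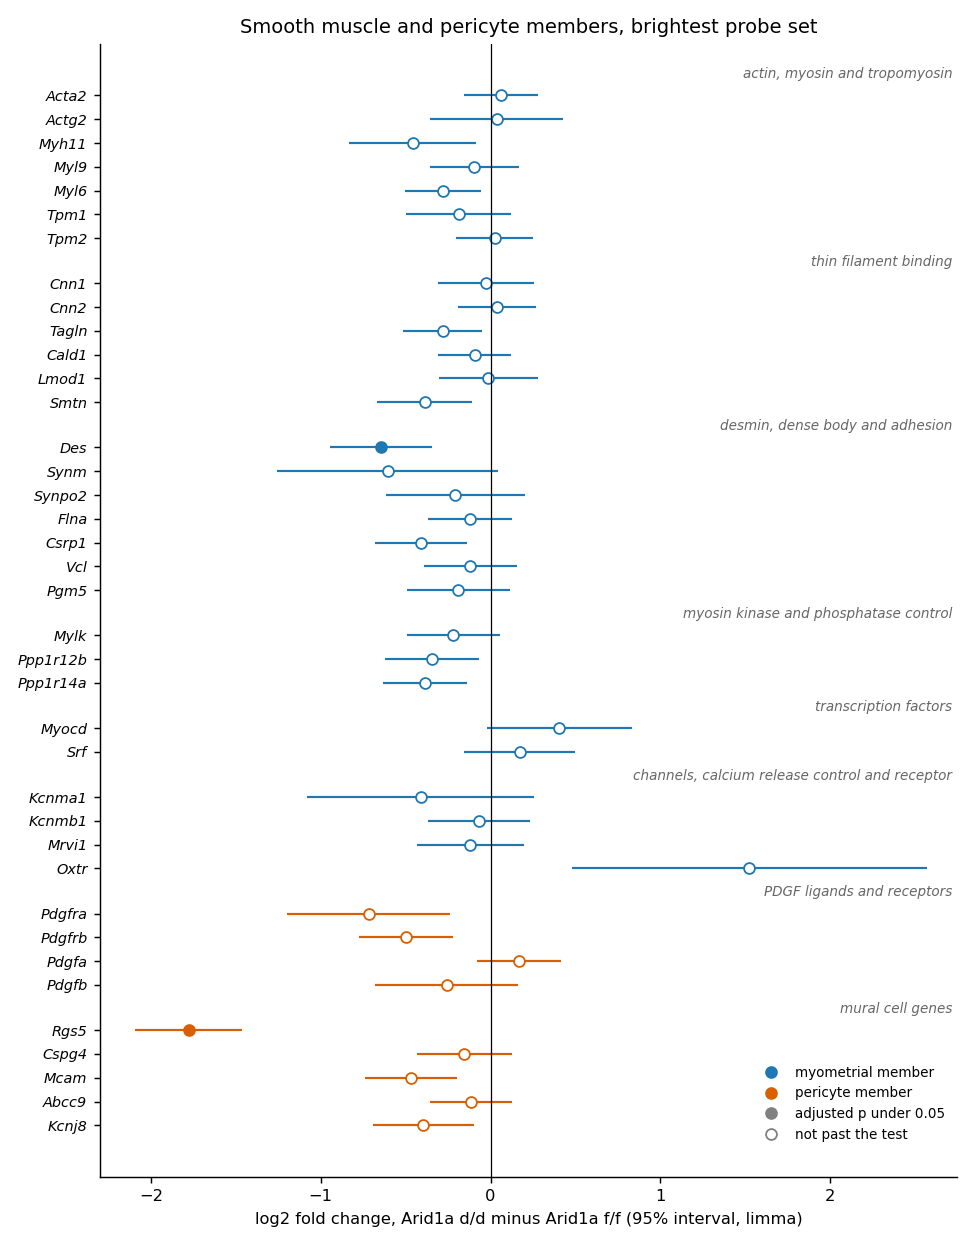
Log2 fold change of each of the 38 members on its brightest probe set, Arid1a d/d minus Arid1a f/f uteri (horizontal axis), with the 95% interval of limma from 3 arrays per genotype, grouped by role. Filled points mark the 2 members past the test, Rgs5 at -1.78 and Des at -0.64, and Oxtr at 1.52 has a wide interval and an open point.

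Rgs5, which marks pericytes and dampens signals of G protein-coupled receptors, differed most among the members. Its intensities were 313, 260 and 324 in Arid1a d/d uteri and 916, 960 and 1207 in Arid1a f/f uteri. The groups lay far apart, and the mean was 299 ± 34.6 in Arid1a d/d uteri and 1028 ± 157 in Arid1a f/f uteri (SD, n = 3 each). Rgs5 was thus 3.43-fold lower (log2 fold change -1.78, standard error 0.14, adjusted p = 0.00124, limma). The other 3 probe sets of Rgs5 had log2 fold changes of -2.05, -1.97 and -1.70, with adjusted p of 0.00142, 0.00428 and 0.0160 (limma). When each of the 6 arrays was left out in turn, Rgs5 kept its call on the brightest probe set, with -1.86 to -1.66. Its least bright probe set lost the call when Arid1a d/d replicate 3 or Arid1a f/f replicate 2 was left out.

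**Figure D2:**
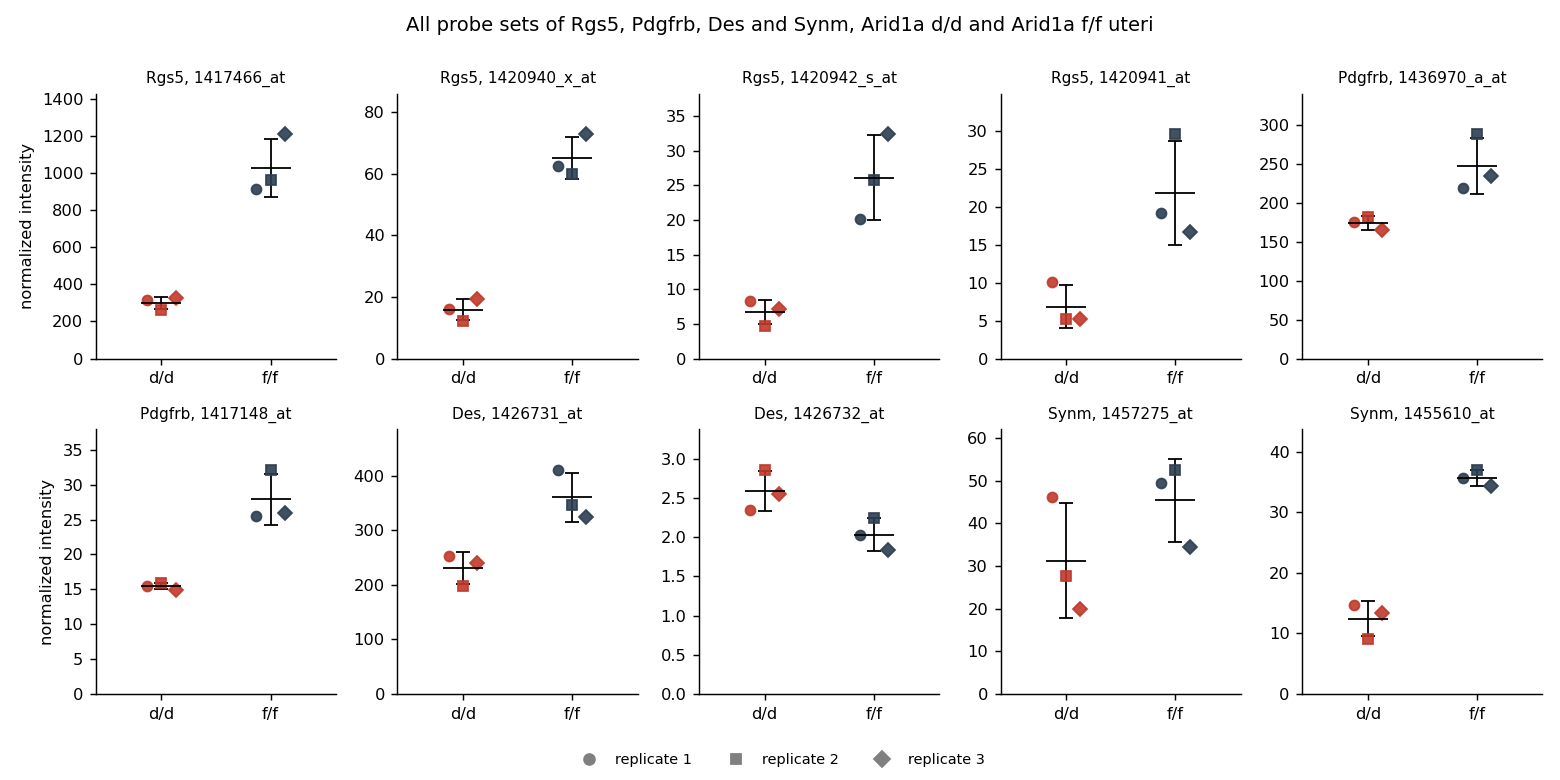
Normalized intensity (vertical axis, from 0) of every probe set of Rgs5, Pdgfrb, Des and Synm on the 3 Arid1a d/d arrays (left) and the 3 Arid1a f/f arrays (right), with the mean and SD in black. All 4 probe sets of Rgs5 and both of Pdgfrb are lower on every Arid1a d/d array, and the probe sets of Des lie in opposite directions.

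The promoters of the members are from RefSeq, assembly GRCm38.p6, from 250 bases before to 50 bases after the start of the gene, and 32 of the 38 members matched by symbol. Those of Rgs5 and Des are shown because these genes passed the test, with the E-box CANNTG, a motif bound by basic helix-loop-helix factors, in capitals.
Rgs5, chr1:169655251-169655550, plus strand: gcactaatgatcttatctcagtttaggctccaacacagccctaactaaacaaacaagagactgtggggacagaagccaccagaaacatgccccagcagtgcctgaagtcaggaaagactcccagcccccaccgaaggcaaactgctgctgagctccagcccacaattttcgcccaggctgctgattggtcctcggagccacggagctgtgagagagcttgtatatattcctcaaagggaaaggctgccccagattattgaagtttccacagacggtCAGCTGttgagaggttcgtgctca
Des, chr1:75360042-75360341, plus strand: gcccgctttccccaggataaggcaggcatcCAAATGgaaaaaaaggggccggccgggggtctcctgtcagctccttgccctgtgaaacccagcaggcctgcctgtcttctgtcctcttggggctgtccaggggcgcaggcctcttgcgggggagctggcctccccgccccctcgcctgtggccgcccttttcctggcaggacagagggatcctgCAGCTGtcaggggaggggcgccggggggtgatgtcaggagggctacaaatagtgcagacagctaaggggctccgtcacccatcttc
Neither of these windows holds a CArG box or TGGGAA, the core motif of the Notch effector RBPJ, searched on both strands. The E-box was found in 25 of 32 members, against 75% of 27025 genes with a promoter, and TGGGAA in 12 of 32 members, against 28.3% of these genes. A match is a description of the letters, and these data hold no measurement of binding.

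A CArG box was found in 5 of 32 members, against 1.81% of the 27025 genes. The windows that hold it are shown, with the box in capitals, as the letters behind this count. The search took both strands, and the boxes share no base with an E-box or TGGGAA.
Myl9, chr2:156775283-156775332, plus strand: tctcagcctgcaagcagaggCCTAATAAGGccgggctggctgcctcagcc
Myl6, chr10:128493030-128493079, minus strand: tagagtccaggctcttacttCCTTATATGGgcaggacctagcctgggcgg
Cnn2, chr10:79988524-79988573, plus strand: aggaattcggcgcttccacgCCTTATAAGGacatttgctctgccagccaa
Vcl, chr14:20929151-20929200, plus strand: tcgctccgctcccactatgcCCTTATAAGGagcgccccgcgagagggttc
Srf, chr17:46556195-46556264, minus strand: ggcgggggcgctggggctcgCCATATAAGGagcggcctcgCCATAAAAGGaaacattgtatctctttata
Srf itself held 2 boxes. Of these 5 genes 0 passed the test, where 4.06% of all genes were lower and 3.37% higher, and their log2 fold changes were -0.28 to 0.17. The 6 members without a matched promoter, Actg2, Myh11, Myocd, Pdgfb, Pdgfrb and Tagln, were not searched. Whether they hold a CArG box is thus not known from these windows.

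The other genes of the pericyte group encode the PDGF receptors and ligands, surface proteins of mural cells and the subunits of a vascular potassium channel. Pdgfrb, the PDGF receptor of pericytes, had intensities of 175, 182 and 165 in Arid1a d/d uteri and 219, 288 and 235 in Arid1a f/f uteri. The groups did not overlap, but the difference did not pass the test (log2 fold change -0.50, standard error 0.12, adjusted p = 0.0563, limma). Its second probe set, chosen for mention after its values were seen, had 15.5, 15.9 and 15.0 in Arid1a d/d uteri and 25.6, 32.1 and 26.0 in Arid1a f/f uteri. These groups did not overlap either, and this difference passed (log2 fold change -0.84, adjusted p = 0.00785, limma) and kept its call on leaving out any 1 array. Averaged over both probe sets Pdgfrb passed too, with -0.67 (adjusted p = 0.0128, limma), where the adjustment was over 18193 genes and not over probe sets.

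Pdgfra, a PDGF receptor that is widely made by fibroblasts, had intensities of 447, 248 and 416 in Arid1a d/d uteri and 517, 619 and 641 in Arid1a f/f uteri. The groups did not overlap, Arid1a d/d replicate 2 was the lowest, and the test was not passed (log2 fold change -0.72, standard error 0.21, adjusted p = 0.0995, limma). Averaged over its probe sets Pdgfra had -0.37. The ligand gene Pdgfa had a log2 fold change of 0.17, and Pdgfb, whose product is released by endothelial cells to recruit pericytes, had -0.26. Mcam, an adhesion molecule of mural and endothelial cells, had -0.47 with an adjusted p of 0.0648 (limma), and it did not overlap between genotypes. Kcnj8 and Abcc9, subunits of a potassium channel of pericytes that responds to ATP, had -0.40 and -0.11. Cspg4, the pericyte proteoglycan NG2, had -0.15. None of the 4 mural genes other than Rgs5 passed the test.

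Of the 7 genes of actin, myosin and tropomyosin, 0 passed the test (limma), with a median log2 fold change of -0.10, and 2 were lower and 0 higher at an unadjusted p under 0.05 (13.5% and 11.4% of all genes). Acta2, smooth muscle alpha-actin, had intensities of 2953, 2742 and 2709 in Arid1a d/d uteri and 2841, 2609 and 2615 in Arid1a f/f uteri. The arrays of the genotypes were interleaved, with a log2 fold change of 0.06 and a 95% interval of -0.16 to 0.28. Myh11, the smooth muscle myosin heavy chain, had 511, 327 and 383 in Arid1a d/d uteri and 606, 500 and 546 in Arid1a f/f uteri. Arid1a d/d replicate 1 lay above the lowest Arid1a f/f array, and the test was not passed (log2 fold change -0.46, standard error 0.16, adjusted p = 0.174, limma). Without that replicate Myh11 passed, with -0.64 (adjusted p = 0.0455, limma), while its second probe set had 0.12 over all arrays and the mean of both -0.17. The other 5 genes of actin, myosin and tropomyosin (Actg2, Myl9, Myl6, Tpm1 and Tpm2) had log2 fold changes of -0.28 to 0.04, and none passed.

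**Figure D3:**
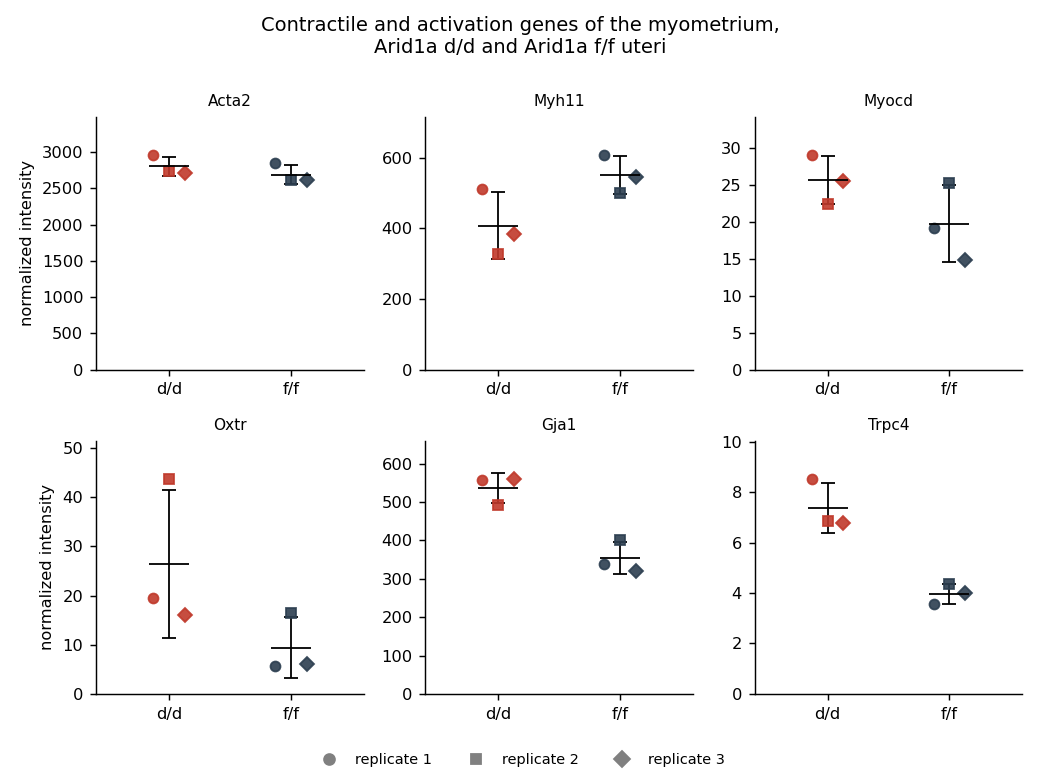
Normalized intensity (vertical axis, from 0) of Acta2, Myh11, Myocd, Oxtr, Gja1 and Trpc4 on the 3 Arid1a d/d arrays (left) and the 3 Arid1a f/f arrays (right), with the mean and SD in black. Acta2 is interleaved between genotypes, Oxtr is highest in Arid1a d/d replicate 2, and Gja1 and Trpc4 are higher on every Arid1a d/d array.

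The 6 proteins that bind the thin filament or regulate it, which include the calponins Cnn1 and Cnn2, transgelin (Tagln), caldesmon (Cald1), leiomodin (Lmod1) and smoothelin (Smtn), had a median log2 fold change of -0.06. Of these, 0 passed the test (limma), and 2 were lower and 0 higher at an unadjusted p under 0.05, where 13.5% of all genes were lower and 11.4% higher. Smtn had -0.39 and Tagln -0.28, and on both genes all Arid1a d/d arrays lay below all Arid1a f/f arrays. Cald1 had -0.09 on its brightest probe set, and its direction turned to 0.21 when its probe sets were averaged. Of the control of myosin, the kinase Mylk had -0.22, the phosphatase subunit Ppp1r12b -0.34 and the phosphatase inhibitor Ppp1r14a -0.39. Of these 3, 0 passed the test (limma), and 2 were lower at an unadjusted p under 0.05, against 13.5% of all genes.

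Genes of the intermediate filaments, dense bodies and adhesion sites were all below 0, as were 9741 of 18193 genes. The median log2 fold change was -0.21 over these 7 genes and -0.018 over all genes. Of the 7, 1 was lower past the test, against 4.06% of all genes, and 0 were higher, against 3.37%. Des had intensities of 253, 198 and 240 in Arid1a d/d uteri and 411, 347 and 324 in Arid1a f/f uteri. The groups did not overlap, and Des was 1.56-fold lower, with means of 230 ± 28.5 in Arid1a d/d uteri and 360 ± 45.0 in Arid1a f/f uteri (log2 fold change -0.64, standard error 0.13, adjusted p = 0.0313, limma). The call was lost when any of 5 arrays was left out, with adjusted p of 0.0651 to 0.0983 (limma), and was kept only without Arid1a d/d replicate 1 (adjusted p = 0.0428, limma). The second probe set of Des, whose mean lay below the median of all intensities, had 0.35 and did not pass. Averaged over both probe sets Des had -0.15 and no call (adjusted p = 0.379, limma).

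Synm encodes synemin, a partner of desmin in intermediate filaments. Its brightest probe set had intensities of 46.2, 27.6 and 19.9 in Arid1a d/d uteri and 49.5, 52.6 and 34.4 in Arid1a f/f uteri. The groups overlapped, and the test was not passed (log2 fold change -0.61, standard error 0.29, adjusted p = 0.309, limma). The second probe set, chosen for mention after its values were seen, had 14.7, 9.13 and 13.4 in Arid1a d/d uteri and 35.7, 37.0 and 34.4 in Arid1a f/f uteri. Here the groups lay apart, the log2 fold change was -1.55 (adjusted p = 0.00334, limma), and the call was kept on leaving out any 1 array. Averaged over both probe sets Synm had -1.08 and passed (adjusted p = 0.0181, limma), where the adjustment was over 18193 genes and not over probe sets.

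The other 5 genes of this role were Synpo2, Flna, Csrp1, Vcl and Pgm5, which tie actin to dense bodies and adhesion sites. Their log2 fold changes were -0.41 to -0.12, and none passed on the brightest probe set. Csrp1, a LIM domain protein of smooth muscle, had the lowest value and did not overlap between genotypes. A dim probe set of Synpo2, also chosen after its values were seen, had -0.53 (adjusted p = 0.0272, limma) and lost its call on leaving out any 1 of the 6 arrays. Over all 83 probe sets of the 38 members, 8 were lower and 0 higher at an adjusted p under 0.05 (limma), against 2.35% lower and 2.42% higher of all probe sets. They were the 4 of Rgs5 and 1 each of Pdgfrb, Des, Synm and Synpo2, so that they do not stand for 8 genes. The members were also brighter than genes at large. Means below the median of all intensities were found on 16 of the 83 probe sets. By brightest probe set they were found on 0 of 38 members and 6135 of 18193 genes.

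The transcription factor genes lay above 0 and did not pass. Myocd, which encodes myocardin, had intensities of 29.0, 22.5 and 25.5 in Arid1a d/d uteri and 19.2, 25.2 and 14.8 in Arid1a f/f uteri. The groups overlapped through Arid1a f/f replicate 2, and the difference did not pass (log2 fold change 0.41, standard error 0.19, adjusted p = 0.298, limma). Srf had 0.17.

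Oxtr, the oxytocin receptor that drives contraction at term and is also made by uterine epithelium, had the highest log2 fold change of the members. Its intensities were 19.5, 43.6 and 16.0 in Arid1a d/d uteri and 5.62, 16.6 and 6.13 in Arid1a f/f uteri. In both genotypes replicate 2 was the highest, Arid1a f/f replicate 2 lay above Arid1a d/d replicate 3, and the groups thus overlapped. The difference did not pass the test (log2 fold change 1.52, standard error 0.46, adjusted p = 0.107, limma). Epithelial markers moved with it on the same array: the median deviation of 11 measured epithelial markers from their means over the 6 arrays was 0.85 in Arid1a d/d replicate 2, -0.20 and 0.18 in the other Arid1a d/d replicates and -0.35 to -0.24 in Arid1a f/f uteri, on the log2 scale. Their part in the value of Oxtr was not tested. The second probe set of Oxtr, below the median intensity, had -0.11, and both averaged gave 0.71. Of the channel genes, the calcium-activated potassium channel subunits Kcnma1 and Kcnmb1 had -0.41 and -0.07, and Mrvi1, which restrains calcium release, had -0.12. Without Arid1a d/d replicate 1, Kcnma1 passed with -0.79 (adjusted p = 0.0474, limma). Its values in Arid1a d/d replicates 2 and 3 were 3.01 and 2.94, below the median of all intensities (3.12). Averaged over its probe sets Kcnma1 had -0.10 and did not pass (adjusted p = 0.582, limma).

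Across arrays, the myometrial members were not uniformly lower in Arid1a d/d uteri. The median deviation of the 29 genes from their means over the 6 arrays was 0.11, -0.17 and -0.16 in Arid1a d/d uteri and 0.17, 0.05 and 0.06 in Arid1a f/f uteri, on the log2 scale. Arid1a d/d replicate 1 lay between the Arid1a f/f arrays, and without it the median log2 fold change of the myometrial members was -0.24. For the 9 pericyte members the median deviation was -0.14, -0.19 and -0.14 in Arid1a d/d uteri and 0.09, 0.34 and 0.12 in Arid1a f/f uteri. Here every Arid1a d/d array lay below every Arid1a f/f array.

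**Figure D4:**
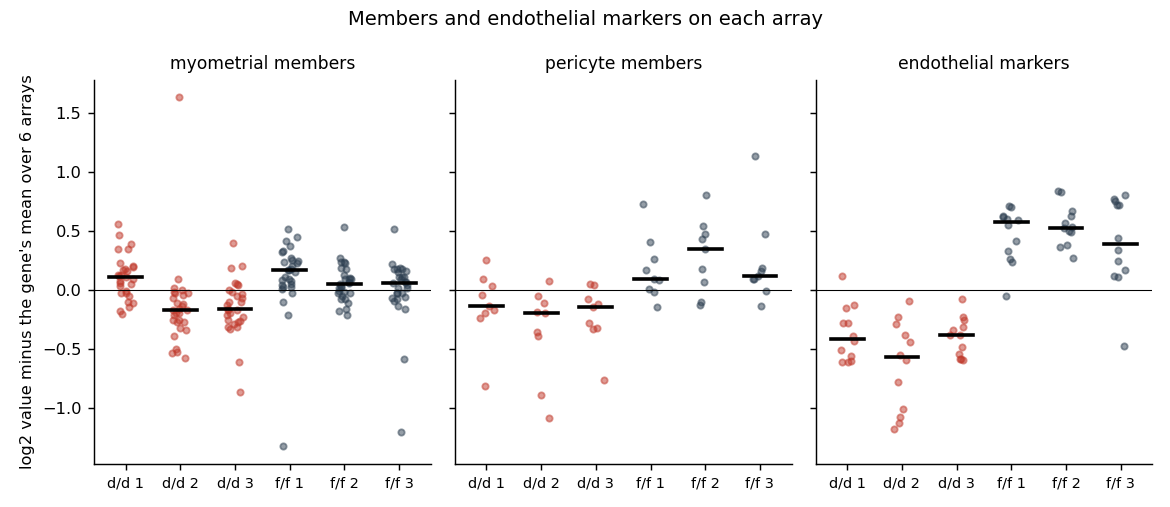
Deviation of each gene from its own mean over the 6 arrays (vertical axis, log2 scale) on the 3 Arid1a d/d and the 3 Arid1a f/f arrays, for the 29 myometrial members, the 9 pericyte members and 12 endothelial markers, with the median as a bar. The myometrial median of Arid1a d/d replicate 1 lies among the Arid1a f/f arrays, and the endothelial markers lie apart by genotype.

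Other genes of mural cells, listed beside the members, were lower in part. Of 19 measured genes, 6 were lower, against 4.06% of all genes, and 0 higher, against 3.37%, at an adjusted p under 0.05 (limma). The median log2 fold change was -0.48. Vtn, the vitronectin gene that pericytes express in mouse brain, had intensities of 4.60, 4.54 and 4.55 in Arid1a d/d uteri and 11.9, 9.02 and 11.0 in Arid1a f/f uteri. Its groups lay apart (log2 fold change -1.21, adjusted p = 0.0026, limma). Gucy1a3, a subunit of soluble guanylate cyclase through which nitric oxide relaxes vascular muscle, had 14.1, 11.6 and 14.9 in Arid1a d/d uteri and 26.8, 28.9 and 37.6 in Arid1a f/f uteri. Its groups lay apart as well (log2 fold change -1.19, adjusted p = 0.00626, limma), and both genes kept their calls on leaving out any 1 array. Gucy1a3 had -0.57 with its probe sets averaged, and passed. The gap junction gene Gja4 had -1.03 (adjusted p = 0.0210, limma) and the T-box gene Tbx2 -0.85 (adjusted p = 0.0150, limma). Gja4 lost its call when any of 5 arrays was left out, all but Arid1a d/d replicate 3, and Tbx2 no longer passed when Arid1a f/f replicate 1 or 2 was left out. The mean of Tbx2 in Arid1a d/d uteri lay below the median of all intensities. The remaining 2 were the Notch receptor gene Notch3, which is needed in arterial smooth muscle, with -0.81, and the Notch target Heyl, with -0.72.

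Endothelial markers were lower in the same uteri. Of 12 measured markers, 10 were lower, against 4.06% of all genes, and 0 higher, against 3.37%, at an adjusted p under 0.05 (limma). These markers, like the other lists, were chosen with earlier results of these data known, and their count is not that of an unselected list. The median log2 fold change was -0.95. The summed intensity of these markers was 257 to 310 in Arid1a d/d uteri and 571 to 595 in Arid1a f/f uteri. The sums did not overlap, and 0 of the 12 markers had a mean below the median of all intensities. The 4 lowest were Vwf with -1.46, Cdh5 with -1.45, Pecam1 with -1.33 and Esam with -1.32, which encode von Willebrand factor and junction proteins of endothelium. With probe sets averaged Cdh5 had -0.83 and passed, and Pecam1 no longer passed when Arid1a f/f replicate 3 was left out (adjusted p = 0.0509, limma). On leaving out 1 array, 5 to 8 of the 12 were called lower, with 5 when Arid1a f/f replicate 3 was left out, and 6 for Arid1a d/d replicate 1, Arid1a d/d replicate 3 or Arid1a f/f replicate 2. Their part in the values of Rgs5 and the other mural genes was not tested.

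The counts of other cell types stand against 4.06% lower and 3.37% higher of all genes at an adjusted p under 0.05 (limma). Stromal fibroblast markers had 3 lower and 0 higher of 12 and a median of -0.44. Their summed intensities were 7930 to 9401 in Arid1a d/d uteri and 10078 to 11500 in Arid1a f/f uteri. The lower genes were Pdpn with -1.39, Dcn with -1.06 and Thy1 with -0.89. Dcn lost its call without Arid1a d/d replicate 2 or Arid1a f/f replicate 2, and Thy1 on leaving out Arid1a d/d replicate 2, Arid1a f/f replicate 1 or Arid1a f/f replicate 2. Epithelial markers had 1 higher and 0 lower of 11, with a median of 0.77 and summed intensities of 1230 to 2440 in Arid1a d/d uteri and 1164 to 1254 in Arid1a f/f uteri, and Cdh1, which encodes E-cadherin, was the higher gene at 0.92. Cdh1 no longer passed when Arid1a f/f replicate 2 was left out (adjusted p = 0.0569, limma). Leukocyte markers had 1 lower and 0 higher of 11 and a median of -0.35, with summed intensities of 478 to 590 in Arid1a d/d uteri and 591 to 893 in Arid1a f/f uteri. The lower gene, Ptprc, had -0.80. It lost its call when any array but Arid1a d/d replicate 1 was left out (adjusted p of 0.0590 to 0.107, limma), and had -0.41 and no call with its probe sets averaged. Mesothelial markers had 0 of 6 past the test and markers of skeletal and cardiac muscle 0 of 14, with medians of -0.16 and -0.03. At an unadjusted p under 0.05, 1 mesothelial marker and 0 skeletal or cardiac markers were lower, and 0 were higher. Of all genes 13.5% were lower and 11.4% higher at this threshold. The part of these cell types in the members' values was not tested.

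**Figure D5:**
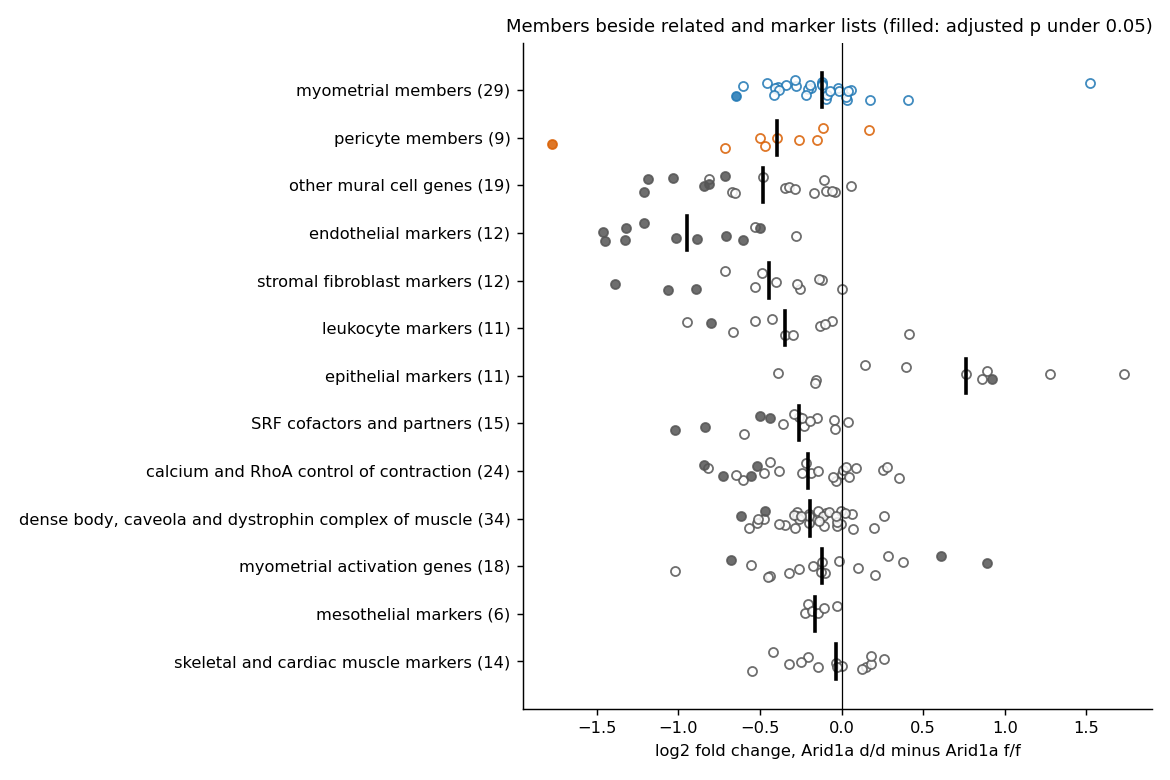
Log2 fold change of each gene, Arid1a d/d minus Arid1a f/f uteri (horizontal axis), for the members and for the related and marker lists, with the number of measured genes in brackets, filled points past an adjusted p of 0.05 and the median as a bar. The median is -0.12 for the myometrial members, -0.40 for the pericyte members, -0.48 for other mural cell genes and -0.95 for endothelial markers.

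Genes that act around the contractile apparatus were also lower in part. Of 24 measured genes of calcium and RhoA control of contraction, 4 were lower, against 4.06% of all genes, and 0 higher, with a median log2 fold change of -0.20. Cacna1h, a T-type calcium channel, had intensities of 4.22, 4.98 and 5.54 in Arid1a d/d uteri and 9.26, 8.20 and 8.90 in Arid1a f/f uteri. Its groups did not overlap (log2 fold change -0.85, adjusted p = 0.00966, limma), and the call was kept on leaving out any 1 array and, at -0.53, when its probe sets were averaged. The others were the phospholipase C gene Plcb4 with -0.73, the cGMP-dependent kinase Prkg1 with -0.55 and the calcium channel subunit Cacnb2 with -0.52. Plcb4 kept its call on leaving out any 1 array but had -0.07 and no call when its probe sets were averaged, and Prkg1 and Cacnb2 each lost theirs when any of 5 arrays was left out. Prkg1 kept its call only without Arid1a d/d replicate 1 and Cacnb2 only without Arid1a d/d replicate 3. With probe sets averaged they had -0.31 and -0.35 and no call.

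Of 15 measured cofactors and partners of SRF, 4 were lower, against 4.06% of all genes, and 0 higher, with a median of -0.26. Mkl2, an SRF coactivator that responds to actin and is named Mrtfb in the gene table, had intensities of 86.2, 58.0 and 70.6 in Arid1a d/d uteri and 136.9, 130.5 and 164.9 in Arid1a f/f uteri. The groups did not overlap, and Mkl2 was 2.03-fold lower (log2 fold change -1.02, adjusted p = 0.0122, limma), with the call lost without Arid1a f/f replicate 3 (adjusted p = 0.0514, limma). With its probe sets averaged Mkl2 had -0.46 and passed (adjusted p = 0.0296, limma). Nfatc1, a calcium-dependent transcription factor, had -0.84 and lost its call when Arid1a d/d replicate 2, Arid1a f/f replicate 2 or Arid1a f/f replicate 3 was left out. Foxo3 and Mef2d, transcription factors that bind or work with the myocardin family, had -0.50 and -0.44, and both lost their calls whichever array was left out. With probe sets averaged, Nfatc1 had -0.31, Foxo3 -0.28 and Mef2d -0.11, and none of these 3 passed. In the list of dense body, caveola and dystrophin complex genes, 2 of 34 were lower, against 4.06% of all genes. In this list 0 were higher, against 3.37% of all genes, and the median was -0.19. Filip1l had -0.62 and lost its call whichever array was left out, and the laminin receptor subunit Itga7 had -0.47 and lost it for 5 of the 6 arrays, all but Arid1a d/d replicate 3.

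The genes of myometrial activation, which couple and excite the muscle, went both ways. Of 18 measured genes, 2 were higher, against 3.37% of all genes, and 1 lower, against 4.06%, with a median of -0.12. Gja1, the gap junction protein connexin 43 that couples myometrial cells at term and is also made by stromal cells, had intensities of 558, 492 and 559 in Arid1a d/d uteri and 338, 400 and 321 in Arid1a f/f uteri. The groups did not overlap (log2 fold change 0.61, standard error 0.12, adjusted p = 0.0251, limma), but the call was lost when any of 4 arrays was left out, all but replicate 2 of either genotype. Trpc4, a cation channel, had 8.51, 6.84 and 6.77 in Arid1a d/d uteri and 3.56, 4.34 and 3.99 in Arid1a f/f uteri. Its groups did not overlap and it kept its call whichever array was left out (log2 fold change 0.89, adjusted p = 0.00934, limma), but it had 0.30 and no call when its probe sets were averaged. Ptger4, a prostaglandin E2 receptor that raises cyclic AMP, was lower, with -0.68 (adjusted p = 0.0120, limma), and no longer passed when Arid1a f/f replicate 2 or 3 was left out.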

How the data were processed

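Whole uteri at 3.5 dpc were measured on Affymetrix mouse arrays, 3 per genotype. The deposited intensity values were made by the authors with RMA and global scaling, no version given, and are linear, from 1.29 to 4479. The methods name a target trimmed mean that the table does not show, for a reason not stated there. Probe sets carry the platform's gene names, updated through Entrez IDs to GRCm38.p6: 34945 name 1 gene, 932 several and 9160 none here. Log2 values were fitted with limma 3.58.1 in R 4.3.3 (lmFit, eBayes, two-sided). On data simulated for the same comparison over 45037 probe sets, 71 of 100 changed by log2 1 and 95 of 100 changed by log2 2 were recovered. There were 9 false calls. Changes under log2 1, such as those of most members, were not simulated. RMA compresses differences of dim probe sets, and the table has no detection calls, so that small fold changes of dim genes are uncertain.

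The members and lists were chosen with earlier results of these data known. By the rule, every member was accounted for. Array values were given for members past the test, the 3 of largest change in each group, and Acta2, Myh11, Oxtr, Myocd, Pdgfrb and Rgs5. From each other list, up to 4 genes past the test were named. Notch3, Heyl and the dimmer probe sets fall outside it and were picked with their values known. Of 15 alternatives, 6 left out an array and 9 changed the fit or the probe sets. The labels do not say whether replicate numbers pair the samples, and the main fit took them as unpaired. The number of arrays limits the precision.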

Additional observations from a re-analysis of the deposited data

How the results depend on the processing

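Under every alternative with a value, the median of the myometrial members stayed below 0 (-0.24 to -0.10) and that of the pericyte members too (-0.49 to -0.32). The paper names Student's t-test for comparisons of 2 groups in general, while its array genes were selected by fold change filters. By this t-test, with a Benjamini-Hochberg adjustment added here, 0 probe sets were higher and 0 lower. Thus 0 members and 0 genes of the other lists passed. At an unadjusted p under 0.05 that test gave 3386 higher and 3316 lower of 45037 probe sets. Of the 38 members, each by its brightest probe set, 10 were lower and 0 higher. The share of all genes at this threshold was not counted for the t-test, and probe sets are not genes. Whether 10 lower members exceed the share of genes at large was thus not tested for the t-test. Shares of all genes past the test (4.06% lower and 3.37% higher) were counted for the main fit only. The member counts of the alternatives thus have no share of all genes beside them. With trend and robust options, 3 myometrial members (Des, Csrp1 and Tagln) and 3 pericyte members (Rgs5, Pdgfrb and Mcam) were lower. Lower pericyte members numbered 2 with quantile normalization, 2 with dim probe sets left out and 3 with the mean of each gene's probe sets. Leaving out dim probe sets and averaging both adjusted over fewer tests than the main fit. Mcam has 1 probe set, and its log2 fold change of -0.47 was unchanged by averaging. Its adjusted p was 0.0648 in the main fit and 0.0438 over gene means (limma). Without 1 array, 241 to 941 probe sets were higher and 337 to 878 lower, 0 to 3 myometrial members were lower (3 without Arid1a d/d replicate 1), and 13 to 23 genes of the other lists were lower.

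Deviations of same-numbered samples had correlations of -0.00364, 0.0467 and 0.143, and those of unlike number -0.119 to 0.0649. Not every array correlated best with its own number. With 3 arrays per genotype, these correlations cannot settle whether the numbers pair the samples. With the replicate number as a block, 1126 probe sets were higher and 1039 lower, and 1 myometrial member, Oxtr, was higher (adjusted p = 0.00291, limma). Cacnb2, Mef2d and Itga7 lost their calls under the block.

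Directions near 0 turned. Cnn2 had -0.036 with quantile normalization, and Cald1 had 0.21 with its probe sets averaged and 0.10 without _s_at and _x_at probe sets, which can match several transcripts. Without 1 array, Actg2 had -0.13 to 0.18, Tpm2 -0.024 to 0.078, Cnn1 -0.13 to 0.046, Cnn2 -0.018 to 0.082, Lmod1 -0.12 to 0.11, Kcnmb1 -0.14 to 0.070 and Mrvi1 -0.23 to 0.016. The cause was not tested.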
